A study of Danio rerio with 12 samples.

Results

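The sites described here are genomic regions where p63 and Sox3 both had a peak in the zebrafish gastrula, where the p63 peak was no longer listed at later stages, and where Sox3 peaks were listed again after gastrulation. They are called transient shared binding sites (BSs) below. p63 peaks of 6 libraries were merged into 72866 regions that shared at least 1 bp. A transient shared BS had a p63 peak in both libraries of 80% of epiboly, no p63 peak in any of the 4 libraries of 24 or 36 hours post-fertilization (hpf), a Sox3 peak at 80% of epiboly, and a Sox3 peak in at least 1 of the 5 later Sox3 libraries. In all, 1614 regions met this definition, which is 2.22% of the merged regions, 6.51% of the 24806 regions with p63 peaks in both libraries of 80% of epiboly, and 14.4% of the 11219 of them that had no later p63 peak. The sites were thus chosen by measured peaks, so that their presence in the lists of 80% of epiboly and their absence from the later p63 lists are a description and were not tested.

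Whole embryos were assayed by ChIPmentation, in which chromatin is captured with an antibody and the Tn5 transposase then adds sequencing adaptors to it. Sox3 was profiled at 36 hpf in tp63-/- embryos (2 libraries) and in wild-type (WT) embryos (2 libraries), and in WT embryos at 80% of epiboly and 24 hpf (1 library each). The study states that it left out replicate 2 of Sox3 at 80% of epiboly and at 24 hpf because sample quality was low. p63 was profiled in WT embryos only, with 2 libraries each at 80% of epiboly (gastrula), 24 hpf (segmentation) and 36 hpf (pharyngula). The tp63-/- embryos carry a small CRISPR/Cas9 deletion in tp63 that truncates all isoforms, and 36 hpf is the earliest stage at which they can be told by eye from other embryos of a clutch. WT embryos were of the AB/Tübingen strains. Every library pools many embryos, and the study describes replicates as biological. For Sox3 in tp63-/- embryos the study used far fewer embryos and smaller lysis volumes than for WT embryos of 36 hpf. Genotype and input thus cannot be told apart in these libraries. Peak lists carry no expression values, so neither the cell types nor the loss of p63 protein in the mutant could be checked against markers here. In whole embryos, binding in few cells and weak binding in many cells cannot be told apart.

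p63 is a transcription factor of the p53 family that is needed for the epidermis and other surface ectoderm to form. Sox3 belongs to the SoxB1 family, whose members keep neural progenitors of the neural plate in an undifferentiated state. These lineages separate from a common ectoderm during gastrulation, and the boundary between them, the neural plate border, gives rise to neural crest and placodes. The sites described here are regions where both factors had early peaks and where, by definition, only Sox3 had later ones. They describe this case, and their later state follows from how they were chosen.

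The lists differed in length and depth. Depth is given here as the tag number behind the peak call, recovered from the deposited values. It is not sequencing depth, and the read totals listed by the study, which were not used here, do not set the WT Sox3 libraries of 36 hpf below the other later Sox3 libraries as the recovered tags do. The tag number was 20.9 and 25.1 M for the p63 libraries of 80% of epiboly, which listed 36652 and 42668 peaks (1 M is a megatag). The 4 later p63 libraries had 1.05 to 16.5 M tags and listed 9538 to 25659 peaks, so the later p63 lists were both shallower and shorter. The Sox3 library of 80% of epiboly was shallow, with 2.75 M tags and 6045 peaks, against 5.75 to 14.1 M tags and 29082 to 81578 peaks in the 5 later Sox3 libraries. A missing peak therefore means only that no peak passed the threshold.

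Of the 6045 Sox3 peaks of 80% of epiboly, 26.7% lay on a transient shared BS, and 72.6% lay on some region with p63 peaks in both libraries of that stage. The sites thus took in a sizeable share of the Sox3 peaks called in the gastrula. At these sites p63 summits had a median fold enrichment over the local background of 6.06 (quartiles 5.06 and 7.18) in replicate 1 and 5.95 (5.04 and 7.14) in replicate 2. Sox3 summits had a median of 7.60 (6.64 and 8.85). Behind these values stood medians of 23 and 28 tags at the p63 summits and 14 tags at the Sox3 summits.

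To compare peaks between lists of different depth, each peak was ranked by its −log10 q within its own list, from 0 for the weakest to 100 for the strongest. The p63 peaks of the transient shared BSs had median percentiles of 64.0 and 69.8 in the p63 libraries of 80% of epiboly, and their Sox3 peaks a median percentile of 57.1. They were thus ordinary Sox3 peaks of the gastrula by rank, and above the middle of the p63 lists. Regions that held both factors at 80% of epiboly and Sox3 later, but kept a p63 peak in at least 1 later list (2554 regions, called p63-kept shared BSs), ranked higher for p63, at 79.1 and 83.6, and about the same for Sox3, at 59.8. The regions with p63 at 80% of epiboly and no later p63 that had a Sox3 peak listed only later (6103 regions, called later-Sox3 BSs) ranked lower for p63, at 46.8 and 51.1.

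**Figure D1:**
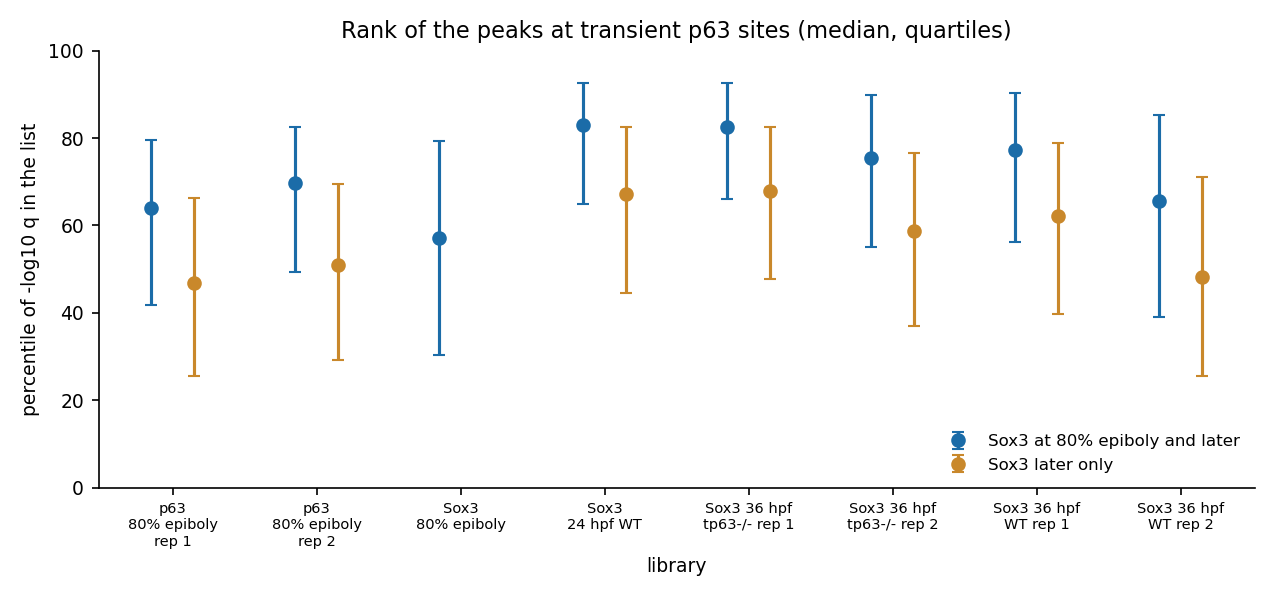
Percentile of −log10 q (vertical axis, 0 to 100 within each list) of the peaks at transient shared BSs (blue, left of each pair) and later-Sox3 BSs (orange) in 8 libraries (horizontal axis). Points are medians over the sites with a peak in that library and bars reach the quartiles. Blue medians lie between 57.1 and 83.1, and each is above the orange median of the same library where both exist.

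Together the transient and p63-kept shared BSs made up 4168 regions with p63 and Sox3 at 80% of epiboly and Sox3 later, of which 38.7% were transient (95% Clopper-Pearson interval 37.2 to 40.2, counting error only, as for all intervals given here). The transient share depended on how strong the p63 peak of the gastrula had been. Over 5 quintiles of p63 strength it was 62.7%, 48.4%, 37.9%, 27.6% and 17.0%, with the weakest p63 peaks first. Weak gastrula p63 peaks were thus more often without a later p63 peak, and the part that the lower depth of the later p63 lists has in this was not tested. Of the 4168 regions, 30.1% had a peak in 1 later p63 list, 20.1% in 2, 4.89% in 3 and 6.14% in 4. The list of p63 at 24 hpf replicate 2 decided the most. Without it the definition gave 2583 sites in place of 1614, while leaving out any other later p63 library gave 1628 to 1801.

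**Figure D2:**
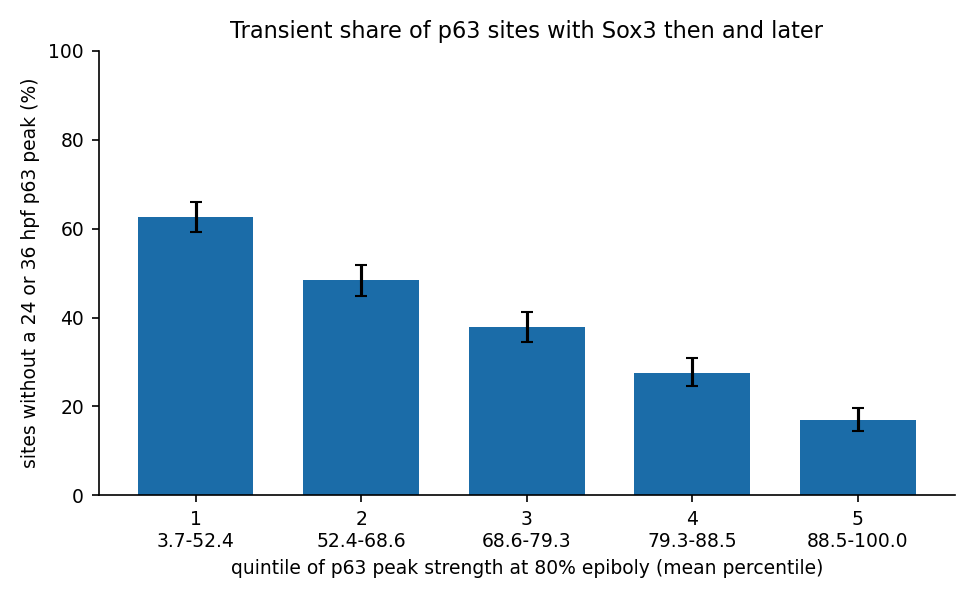
Share of regions without a later p63 peak (vertical axis, percent) among the 4168 regions with p63 and Sox3 at 80% of epiboly and Sox3 later, by quintile of p63 peak strength at 80% of epiboly (horizontal axis, mean percentile of −log10 q in both p63 libraries, with the limits of each quintile). Bars with 95% Clopper-Pearson intervals fall with each quintile, with 62.7% at the weak end and 17.0% at the strong end.

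The definition asked for a later Sox3 peak, and most of the transient shared BSs had one in all 5 later libraries. The share of all merged p63 regions with peaks in all 5 is not given here. Of the 1614 sites, 944 (58.5%) had a Sox3 peak in all 5 later libraries, 240 (14.9%) in 4, 194 (12.02%) in 3, 123 (7.62%) in 2 and 113 (7.001%) in 1. By library, 91.3% of the sites had a Sox3 peak at 24 hpf, 91.6% and 89.3% at 36 hpf in tp63-/- embryos, and 74.5% and 63.5% at 36 hpf in WT embryos. The definition asked for at least 1 of these peaks, which raises the shares. At 24 hpf a Sox3 peak was listed at 45.1% of all 72866 merged p63 regions. At 36 hpf it was 40.3% and 36.4% in tp63-/- libraries, and 27.9% and 20.2% in WT libraries. Of the 24806 regions with p63 peaks in both libraries of 80% of epiboly, 64.0% had one at 24 hpf. At 36 hpf 56.3% and 53.1% of them had one in tp63-/- libraries, and 41.6% and 32.1% in WT libraries. Each set had its lowest shares in the WT libraries of 36 hpf, which had the fewest recovered tags of the 5. The most common incomplete patterns were those that lacked only WT replicate 2 (182 sites) or both WT libraries of 36 hpf (138 sites). There were 54 sites with a Sox3 peak at 24 hpf and in no library of 36 hpf.

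These patterns differed from those of the later-Sox3 BSs, where 1631 of 6103 (26.7%) had a peak in all 5 later libraries and 1321 (21.6%) in a single one. Both classes were required to have at least 1 later Sox3 peak. To compare sites without that requirement, all p63 sites of 80% of epiboly with no later p63 peak were divided by the presence of a Sox3 peak at 80% of epiboly, and their later Sox3 peaks were counted. Of the 1782 regions with an early Sox3 peak, 90.6% (interval 89.1 to 91.9) had Sox3 again later, against 64.7% (63.7 to 65.6) of the 9437 without one.

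Early Sox3 binding went with later Sox3 binding in every library. At 24 hpf a Sox3 peak was present at 82.7% of the regions with early Sox3, against 54.8% of those without. At 36 hpf in tp63-/- embryos the shares were 83.0% and 80.9% with early Sox3 (replicates 1 and 2), against 49.8% and 45.3% without. At 36 hpf in WT embryos they were 67.5% and 57.5% with early Sox3, against 31.7% and 21.4% without. The difference was 33.7 ± 3.46 percentage points (SD, n = 5 libraries) and had the same sign in 5 of 5 libraries (exact sign-flip permutation test over libraries, two-sided, p = 0.0625, adjusted p = 0.125 over 4 tests, where 0.0625 is the smallest p that 5 libraries allow). The libraries cover 3 conditions and share the same sites, so the test covers only the spread between these libraries. Since p63 peaks were stronger at the regions with early Sox3, the shares were also compared within quintiles of p63 strength. The mean difference was then 32.9 percentage points, but the quintiles were not alike. At 24 hpf the shares were 78.4% against 54.8% in the weakest quintile and 82.0% against 42.4% in the strongest. The part that p63 strength has in the difference was not tested. Region width was not adjusted for. Transient shared BSs had a median width of 291 bp, against 229 bp at later-Sox3 BSs, and the part that width has in the difference was not tested.

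**Figure D3:**
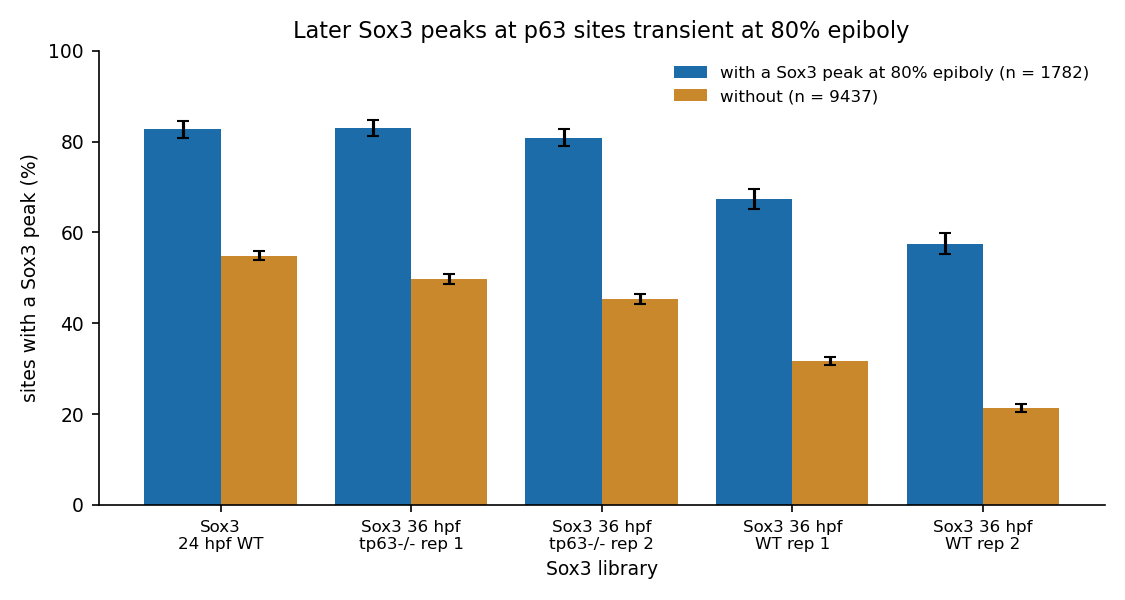
Share of p63 sites of 80% of epiboly without later p63 that had a Sox3 peak (vertical axis, percent) in each of the 5 later Sox3 libraries (horizontal axis), for regions with a Sox3 peak at 80% of epiboly (blue, 1782 regions) and without one (orange, 9437 regions). Bars carry 95% Clopper-Pearson intervals. The blue bars lie between 57.5% and 83.0%, the orange ones between 21.4% and 54.8%.

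The later Sox3 peaks of the transient shared BSs were also the stronger ones. At 24 hpf their median percentile was 83.1, against 67.3 at later-Sox3 BSs. At 36 hpf in tp63-/- embryos the medians were 82.5 and 75.4 at the transient shared BSs, against 67.9 and 58.7 at later-Sox3 BSs. At 36 hpf in WT embryos they were 77.3 and 65.5, against 62.2 and 48.2. The difference was 15.9 ± 1.13 percentile points (SD, n = 5 libraries) and positive in 5 of 5. Each median covers only the sites with a peak in that library, and this share was lower at later-Sox3 BSs in each of the 5. The medians therefore do not compare the same part of both classes. Both classes were also admitted by peaks in these same lists, so the difference is given as a description. Among sites with a peak in all 5 later libraries, 944 of the transient shared BSs and 1631 of the later-Sox3 BSs, the difference was 7.67 percentile points. The median fold enrichment of Sox3 at the transient shared BSs was 9.36 at 24 hpf, 10.9 and 10.2 at 36 hpf in tp63-/- embryos, and 9.71 and 9.24 at 36 hpf in WT embryos.

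The p63-kept shared BSs had Sox3 more often still, with 1847 of 2554 (72.3%) in all 5 later lists and a median percentile of 93.0 at 24 hpf. The transient shared BSs thus lay between the 2 other classes in the number and rank of later Sox3 peaks. This order is a description, with no test. The p63-kept shared BSs also take in later p63 peaks when merged. Their median width was 367 bp, against 291 bp at transient shared BSs and 229 bp at later-Sox3 BSs. In each region the Sox3 peak of highest −log10 q was taken, and the part that width has in the order was not tested.

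The rank of a site by Sox3 height was compared between libraries. Over the 944 sites with 5 later peaks, the percentile of the Sox3 peak at 80% of epiboly was only weakly related to that at 24 hpf (Spearman's rho 0.17 across sites, which are not independent and share the libraries) and to those at 36 hpf (0.26 to 0.27). There is 1 Sox3 library of 80% of epiboly, with a median of 14 summit tags at all transient shared BSs, so the rho that replicates of that stage would give is unknown, and the low values cannot be read as a change in the order of the sites. For the percentile at 24 hpf against those at 36 hpf, rho was 0.51 to 0.54 for tp63-/- libraries and 0.50 to 0.52 for WT libraries. At 36 hpf the ranks of tp63-/- and WT libraries had rho of 0.81 to 0.84, close to the 0.84 between the WT replicates and below the 0.92 between the tp63-/- replicates. The order of the sites by Sox3 height at 36 hpf was thus much the same in both genotypes. The p63 percentile of the gastrula was hardly related to the Sox3 percentile at 24 hpf, with rho of 0.03 and 0.09 for the 2 p63 libraries.

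Strong gastrula Sox3 peaks were more often followed by a peak in all 5 later libraries. By quintile of Sox3 strength at 80% of epiboly, the share of transient shared BSs with all 5 was 49.2%, 52.3%, 59.3%, 62.2% and 69.3%, with the weakest quintile first. By quintile of p63 strength the shares were 52.0%, 57.3%, 62.1%, 60.4% and 60.7%, with the weakest quintile first. Intervals of neighbouring quintiles overlap in both series. Later Sox3 peaks in all 5 libraries were thus common also where the gastrula Sox3 peak was weak.

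The summits of both factors lay close together. At 80% of epiboly the distance between the p63 and Sox3 summits had a median of 48 bp for either p63 library, and it was at most 100 bp at 80.9% of the sites for replicate 1 and 82.1% for replicate 2. This was slightly more than the distance between the p63 replicates themselves, with a median of 39 bp and 85.6% within 100 bp. With peaks of this width the overlap required by the definition bounds these distances, so they describe the sites and carry no test. The p63-kept shared BSs had nearly the same p63 to Sox3 distances, with medians of 47 and 46 bp.

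The later Sox3 summit lay near the early one. Its distance to the Sox3 summit of 80% of epiboly had a median of 40 bp at 24 hpf, 43 and 45 bp at 36 hpf in tp63-/- embryos, and 45 and 46 bp at 36 hpf in WT embryos. From 78.6% to 82.9% of these pairs lay within 100 bp. Both Sox3 peaks had to overlap the same merged p63 region, so the definition bounds these distances too, and they carry no test. Replicate Sox3 libraries of 36 hpf differed by medians of 23 bp in tp63-/- embryos and 28 bp in WT embryos. The summit position of 80% of epiboly rests on few tags, 14 at the median site, which limits how exactly it can be placed.

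**Figure D4:**
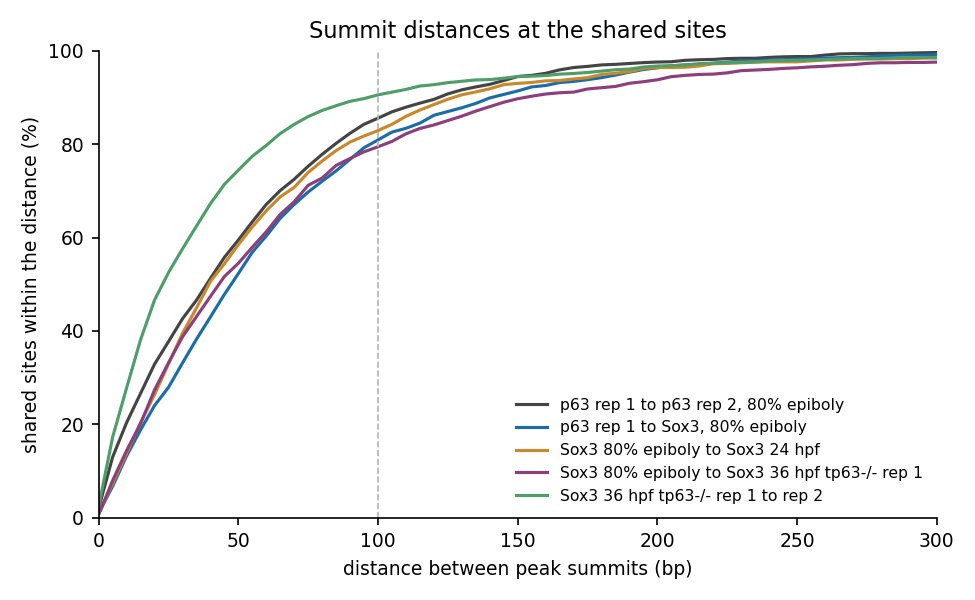
Cumulative share of transient shared BSs (vertical axis, percent) whose summits in 2 libraries lie within a given distance (horizontal axis, bp), for 5 pairs of libraries. The dashed line marks 100 bp. The pair of tp63-/- replicates rises fastest, with a median of 23 bp, and the other 4 pairs run close together, with medians of 39 to 48 bp.

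Sox3 at 36 hpf was compared between genotypes at the transient shared BSs. A Sox3 peak was listed at 91.6% and 89.3% of the sites in tp63-/- libraries, against 74.5% and 63.5% in WT libraries, a difference of 21.5 percentage points between the means. This value is a description, since the definition used the same lists and 92 sites entered it only through tp63-/- lists, against 5 only through WT lists of 36 hpf. The 1474 sites with a Sox3 peak at 24 hpf met the definition without the lists of 36 hpf. Of these, 92.9% and 91.3% had a peak in the tp63-/- libraries, against 79.0% and 67.9% in the WT libraries. The groups did not overlap, and the difference was 18.7 percentage points (92.1% ± 1.15 against 73.5% ± 7.87, SD, n = 2 each). An exact permutation test gave p = 0.333 (two-sided), the smallest p that 2 against 2 libraries allow. It was chosen after seeing the data and is not among the 4 adjusted tests.

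The same direction was found beyond these sites. Over all 72866 merged p63 regions a Sox3 peak was listed at 40.3% and 36.4% in tp63-/- libraries, against 27.9% and 20.2% in WT libraries, a difference of 14.3 percentage points. At later-Sox3 BSs the difference was 32.5. The tp63-/- libraries had 14.1 and 12.9 M recovered tags and 81578 and 59786 peaks, against 7.97 and 5.75 M tags and 51504 and 29082 peaks in the WT libraries, while the read totals listed by the study overlap between the genotypes. When all 4 lists were reduced to their 29082 strongest peaks, a peak was listed at 70.0% and 70.4% of the transient shared BSs in tp63-/- libraries, against 62.5% and 63.5% in WT libraries. The difference was then 7.19 percentage points, against 7.69 at later-Sox3 BSs and 2.79 over all merged p63 regions. Whether the difference is particular to the transient shared BSs was not tested. Embryo input also differed between the genotypes and cannot be told apart from genotype here.

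A peak in both tp63-/- lists and in neither WT list was found at 175 sites (10.8%), where the background over all 72866 merged p63 regions was 7.14%. Of that background, 54.1% had no Sox3 peak of 36 hpf at all. Among regions with a peak in at least 1 of the 4 lists, the pattern was found at 175 of 1560 transient shared BSs (11.2%), below the background of 15.5%. The opposite pattern, both WT lists and neither tp63-/- list, was found at 4 sites (0.248% of all and 0.256% of the 1560), with backgrounds of 0.0947% and 0.206%. A peak in all 4 lists was found at 954 sites (59.1% of all and 61.2% of the 1560), with backgrounds of 17.5% and 38.0%. By these shares the transient shared BSs were above the background in peaks of all 4 lists. They were below it in the tp63-/- pattern once regions without Sox3 at 36 hpf were set aside. The definition asked for Sox3 peaks, in part in these same lists, and the background did not, so the shares are a description. Among regions with a peak of 36 hpf, all 4 lists had a peak at 1699 of 5239 later-Sox3 BSs (32.4%). At p63-kept shared BSs it was 1850 of 2489 (74.3%). Of later-Sox3 BSs with a peak of 36 hpf, 1019 of 5239 (19.5%) had the tp63-/- pattern, and of p63-kept shared BSs 174 of 2489 (6.99%). In lists of equal length it was found at 65 of 1299 transient shared BSs (5.004%), with a background of 7.11%, and the WT pattern at 17 (1.31%), with a background of 2.00%.

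At the 954 sites with a peak in all 4 lists the height of the peaks could be compared. These sites had passed the threshold of each list, and the thresholds differed. Over all transient shared BSs listed in a library, the lowest summit had 0.71 and 0.70 tags per M in tp63-/- libraries. In WT libraries it had 0.75 and 1.22. Left out by this filter were 175 sites with both tp63-/- lists and no WT list, and 248 with both tp63-/- lists and 1 WT list. The opposite patterns were left out at 4 and 6 sites. How far this filter shaped the comparison of heights was not tested. The median number of tags at the summit was 64 and 57 in tp63-/- libraries, against 29 and 23 in WT libraries. Per M tags of the library this gave medians of 4.53 and 4.41 in tp63-/- libraries, against 3.64 and 4.00 in WT libraries. The groups did not overlap on this scale, with a difference of 0.23 in log2 of the median (2.16 ± 0.026 against 1.93 ± 0.098, SD, n = 2 each). This value is a description, since the sites were chosen by peaks in the same lists. The 22511 Sox3 regions with a peak in all 4 lists, taken from the Sox3 lists alone, had medians of 3.68 and 3.56 in tp63-/- libraries, against 3.01 and 3.31 in WT libraries. Relative to these regions the transient shared BSs stood at 0.30 and 0.31 in tp63-/- libraries, against 0.27 and 0.28 in WT libraries (log2), and the difference was 0.030. The transient shared BSs were thus higher than the typical Sox3 region in each of the 4 libraries. This was not particular to them. The 11768 other merged p63 regions with 4 peaks were also higher, with 4.03 and 3.95 in tp63-/- libraries, against 3.39 and 3.65 in WT libraries. The 1699 later-Sox3 BSs with 4 peaks were lower, with 3.47 and 3.25 against 2.76 and 2.96. The difference between genotypes was thus 0.23 per M tags and 0.030 relative to the 22511 regions, at sites with a peak in all 4 lists only. What sets the 2 values apart was not tested.

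Site by site, both tp63-/- libraries were above both WT libraries in tags per M at 329 of the 954 sites (34.5%), where the background over the 22511 Sox3 regions was 29.9%, and below both at 187 (19.6%), with a background of 20.7%. Scaled by the median of the 22511 regions, both were above at 175 sites (18.3%, background 15.5%) and below at 359 (37.6%, background 38.4%). The median difference per site was 0.087 in log2 on the first scale and −0.11 on the second, so the direction of the typical site depended on the scale. Neither scale set the transient shared BSs far from the background.

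**Figure D5:**
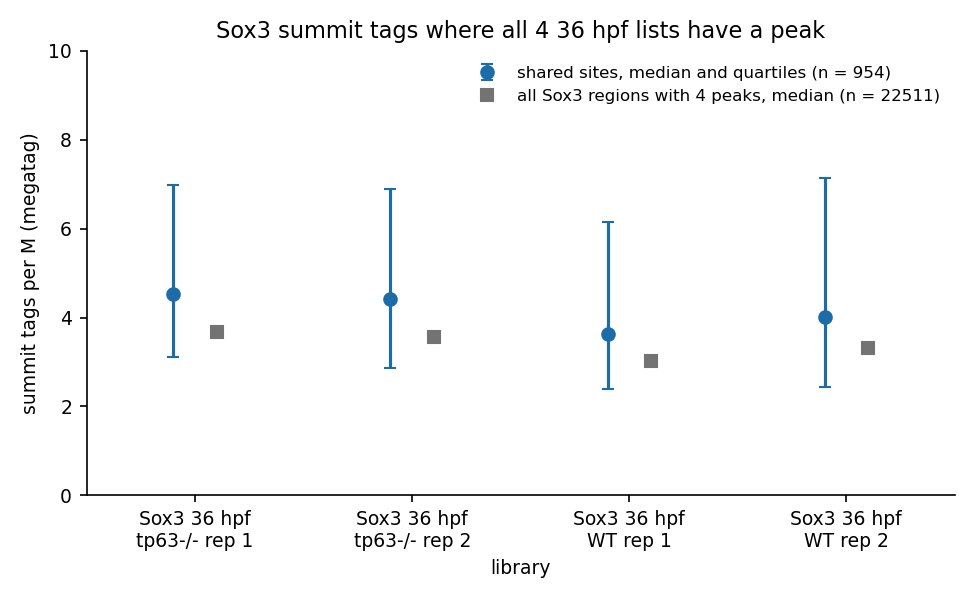
Sox3 summit tags per M tags (vertical axis) in the tp63-/- and WT libraries of 36 hpf (horizontal axis). Blue points are medians over the 954 transient shared BSs with a peak in all 4 lists, with bars to the quartiles, and grey squares are medians over the 22511 Sox3 regions with a peak in all 4 lists. Blue medians lie at 4.53 and 4.41 in tp63-/- and at 3.64 and 4.00 in WT, each above the grey square of the same library.

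The strongest transient shared BSs are described here region by region. Of the sites with 5 later Sox3 peaks, the 12 with the highest mean percentile in the 3 lists of 80% of epiboly were chosen for naming. Their presence in the early and later lists follows from this choice. They were 288 to 752 bp wide, and their p63 and Sox3 summits were at most 122 bp apart. All coordinates are those of GRCz10 (danRer10), and genes, exons and sequence at these positions were not analysed here.

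The first of them, chr9:22750242-22750993, had p63 fold enrichments of 12.4 and 10.2 and a Sox3 fold enrichment of 14.9 at 80% of epiboly. Its later Sox3 peaks had fold enrichments of 10.1 at 24 hpf, 11.5 and 10.8 in tp63-/- embryos, and 7.15 and 8.32 in WT embryos. In summit tags per M the order of the genotypes was reversed, with 1.77 and 1.86 in tp63-/- libraries, against 1.88 and 2.26 in WT libraries. Its percentiles were 97.8, 96.8 and 99.6 in the early lists, which it was chosen for, and 79.0 at 24 hpf and 44.4 in the lower WT library, in lists of other lengths.

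The region chr16:7597523-7597993 ranked high in each of the 8 lists. Its fold enrichment was 9.09 and 7.21 for p63 and 16.4 for Sox3 at 80% of epiboly. For Sox3 it was then 17.1 at 24 hpf, 21.8 and 19.6 in tp63-/- embryos, and 18.5 and 18.9 in WT embryos. Its later percentiles were at least 95.5. The region chr13:29515464-29516086 was alike, with a Sox3 fold enrichment of 15.5 at 80% of epiboly, 19.6 at 24 hpf, 18.5 and 16.4 in tp63-/- embryos, and 19.5 and 19.6 in WT embryos. At the first of these regions both tp63-/- fold enrichments were above both WT ones, but in summit tags per M the genotypes overlapped, with 9.62 and 8.44 in tp63-/- libraries, against 7.65 and 9.40 in WT libraries. At the second both tp63-/- fold enrichments were below both WT ones.

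The region chr21:37519925-37520502 had a weak peak at 24 hpf between strong ones. Its Sox3 fold enrichment was 10.8 at 80% of epiboly, 3.93 at 24 hpf, where it stood at percentile 3.75 of the list, 9.86 and 10.5 at 36 hpf in tp63-/- embryos, and 12.1 and 8.20 in WT embryos. It was 1 of 4 transient shared BSs within 21.1 kb on chromosome 21. The region chr18:16900171-16900458, the narrowest of the 12, had Sox3 fold enrichments of 16.2 at 80% of epiboly, 7.18 at 24 hpf, 11.5 and 17.9 in tp63-/- embryos, and 8.31 and 6.69 in WT embryos. Both tp63-/- values were above both WT values there, though the WT summits held only 13 and 9 tags.

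The other 7 named sites were chr2:41837821-41838217, chr4:8641140-8641618, chr6:45889063-45889498, chr2:33292921-33293338, chr1:14644206-14644673, chr14:32651501-32652125 and chr22:38467656-38468065. Over all 12, p63 fold enrichment at 80% of epiboly was 7.999 to 12.4 and 7.21 to 10.5, and that of Sox3 10.8 to 16.4. Later Sox3 fold enrichment ranged more widely, from 3.93 to 19.6 at 24 hpf, from 5.54 to 23.2 and 4.21 to 19.6 in tp63-/- embryos, and from 4.97 to 19.5 and 6.41 to 19.6 in WT embryos. The narrow range in the gastrula follows from how the 12 were selected. At 24 hpf 3 of them were below the middle of the list, and 9 were above it.

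The edge of the definition was set by the thresholds of the peak lists. At the 2 sites just inside it, the weakest of the peaks needed was the Sox3 peak of 80% of epiboly. It had a −log10 q of 3.43 with 5 tags at its summit at chr20:55094112-55094430, and 3.60 with 8 tags at chr18:30476773-30477174. Later Sox3 peaks there were well above the threshold, with −log10 q of 18.7 and 30.0 at 24 hpf. Of all 1614 sites, 7 had a needed peak with a −log10 q under 4, and 354 (21.9%) had all needed peaks at 10 or more.

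Just outside lay 168 regions with p63 and Sox3 at 80% of epiboly, no later p63 and no later Sox3. The 2 strongest were chr14:32562107-32562650, with p63 fold enrichments of 8.26 and 9.17 and a Sox3 fold enrichment of 10.2, and chr11:29757891-29758156, with 7.27, 7.89 and 11.7. The first lay 88.9 kb from the named transient shared BS of chromosome 14, which had a Sox3 peak in all 5 later libraries. In the gastrula the 168 regions resembled the transient shared BSs, with median p63 percentiles of 64.1 and 69.2 and a median Sox3 percentile of 53.9. A further 601 regions had a p63 peak in 1 of the 2 libraries of 80% of epiboly and otherwise met the definition.

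The sites were spread over the genome. Of the 1614, 1597 lay on chromosomes 1 to 25, with 37 on chromosome 4 as the lowest number and 84 on chromosome 3 as the highest. Per megabase up to the last listed peak, chromosome 4 had 0.483 sites and chromosome 23 had 1.77, the lowest and highest of the 25. As a share of the p63 sites of 80% of epiboly without later p63, transient shared BSs made up 10.5% on chromosome 4, the lowest, and 19.3% on chromosome 12, the highest.

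Most sites stood alone. Of the 1597 sites, 326 (20.4%) had another transient shared BS within 20 kb, in 117 pairs, 19 groups of 3, 5 groups of 4 and 3 groups of 5. The groups of 5 lay at chr13:50299668-50314066, chr14:30797923-30827836 and chr21:20662102-20680503, over 14.4, 29.9 and 18.4 kb. Sites in a group may share a regulatory region and are not independent.

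Later p63 peaks were often near. A p63 peak of 24 or 36 hpf lay within 10 kb of 918 transient shared BSs (56.9%) and within 1 kb of 167 (10.3%), with a median distance of 7.95 kb. Among later-Sox3 BSs the shares were 54.5% and 13.4%, and among the 3334 p63 sites of 80% of epiboly with no later p63 and no Sox3 peak in any list 51.3% and 9.42%. These shares are a description, with no test. Transient shared BSs were wider, with a median merged width of 291 bp (quartiles 226 and 369), against 229 bp at later-Sox3 BSs and 222 bp at the sites with no Sox3. The p63-kept shared BSs had a median width of 367 bp, and wider regions are more likely to overlap a peak of another list.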

How the data were processed

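Each of the 12 libraries was represented by the narrowPeak list of the authors, who aligned reads with Bowtie to GRCz10 (danRer10) and called peaks with MACS2 per library, with a genome size of 1.5 Gb and no control stated. Versions are not given in the sources used here. Fold enrichment, as deposited, is the ratio between the pileup at a summit and its local background within a library, each with a small constant added. Where the background is low, it therefore also grows with depth and is not free of depth between libraries. The deposited −log10 p and −log10 q values grow with depth, and the deposited score is a whole number derived from −log10 q. The score was not used further. Summits are deposited as offsets from the peak start. The deposited peak values are not scaled between libraries, so ranks within a list were used. The equal read numbers that the study used for its own signal comparisons do not enter these values. From fold enrichment and −log10 p, whole summit tags and the local background were solved by the Poisson formula of the caller (largest error in −log10 p 2.17e-04). Backgrounds above the genome level were whole tag numbers in 10 kb, which gave a fragment length of 99 to 156 bp and the tag number, given in M (megatags). For p63 36 hpf replicate 2, in which 0.273% of peaks had the lowest background, the 1.05 M tags are an upper limit.

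Peaks sharing at least 1 bp were merged, and where several peaks of a list met a region the one of highest −log10 q was taken. Classes, summit distances and shares were computed in Python 3.11.15 with numpy 2.4.6, pandas 2.3.3 and scipy 1.17.1. Libraries were the units of the 4 exact permutation tests, with Benjamini-Hochberg adjustment over them. Among the 4 were the differences between genotypes of 21.5 percentage points and 0.23 in log2, and the difference of 15.9 percentile points. They count in the adjustment but are given as descriptions only, since their sites were chosen by peaks in the same lists. Intervals are 95% Clopper-Pearson intervals. Scripts were tested on simulated data. Alternatives were a fold enrichment of at least 5, a −log10 q of at least 10, an overlap of at least 50% of the shorter interval, chromosomes 1 to 25, lists of equal length, either p63 replicate, summits within 100 bp, strength strata, other height scales, a replicate block and leaving out each library but the Sox3 library of 80% of epiboly. Named sites were the 12 of highest mean percentile at 80% of epiboly with 5 later Sox3 peaks on chromosomes 1 to 25, the 2 sites whose weakest needed peak was lowest, and the 2 strongest with no later Sox3. The members, lists and tests were chosen with earlier results of these data known. Gene lists and motifs planned for these sites were not used here, for want of a genome and annotation of the build.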

Additional observations from a re-analysis of the deposited data

How the results depend on the processing

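The number of transient shared BSs depended most on the thresholds and on the later p63 lists. It was 771 with a −log10 q of at least 10 and 670 with lists of equal length, against 1614, and 354 and 302 of the 1614 were kept. In lists of equal length the transient share of regions with both factors and later Sox3 was 45.1%. With each library left out in turn the number was 1560 to 2583, the highest without p63 24 hpf replicate 2. A fold enrichment of at least 5 gave 1215, an overlap of 50% of the shorter interval 1543, p63 in at least 1 gastrula library 2215, and summits within 100 bp 1169. The difference of Sox3 peak shares between genotypes was 16.0 to 27.0 percentage points with each 36 hpf library left out, and 7.19 with lists of equal length. It was 18.7 at sites with a 24 hpf peak, an alternative chosen after seeing the data and the one tested in the text. The difference by early Sox3 was 33.1 to 35.2 percentage points with each later Sox3 library left out, 35.1 with a fold enrichment of at least 5, 37.4 with a −log10 q of at least 10 and 35.3 with lists of equal length. The percentile difference was 15.5 to 16.2 with a library left out, and 12.6 by fold enrichment. The difference in summit tags was 0.16 to 0.30 in log2 with a library left out, 0.27 by fold enrichment and 0.030 relative to all Sox3 regions with 4 peaks. These differences kept their sign under all of these settings, but the median difference per site in summit tags, 0.087 in log2 per M tags, turned to −0.11 relative to all Sox3 regions with 4 peaks. The labels number replicates in both genotypes without saying what a number shares. With the replicate number as a block the differences of 21.5 percentage points and 0.23 in log2 were the same. Both stay descriptions, since their sites were chosen by peaks in the same lists. Deviations of same-numbered libraries had a Pearson's r of 0.13 over 954 sites. All 12 named sites still met the definition under the 4 settings tried for them, but some lost later Sox3 peaks. With a −log10 q of at least 10, those named on chromosomes 4 and 18 kept a peak in 6 of 8 lists. Those on chromosomes 9, 21 and 22 kept 7. With a fold enrichment of at least 5, those on chromosomes 4 and 21 kept 6 and 7. Shallow lists limit what can be said of absent peaks, above all in the Sox3 library of 80% of epiboly and p63 36 hpf replicate 2.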
